A study of Mus musculus with 12 samples.

Results

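The oviducts of early pregnant mice that received excess estradiol (E2) were compared with those of mice given the oil vehicle, across every gene measured. The 6 oviduct arrays, 3 titled E2 treated oviduct and 3 titled Oil treated oviduct, were taken from the 12 arrays of the series, and the other 6 held uterus of mice treated in the same 2 ways. E2 mice received daily injections of 10 µg/kg of E2 beneath the skin on days 0.5 to 2.5 after mating, and oil mice received 100 µl of sesame oil with 0 µg/kg. Tissue was taken on day 3.5, after the oviducts had been flushed to remove embryos. The labels call the 3 arrays of a group biological replicates, give neither strain nor age, and do not say whether an array holds 1 mouse or a pool. Values are log2 intensities of 19938 genes, each read from 1 probe set, and differences are log2 units with the standard error (SE) of limma, which was fitted on all 12 arrays. A gene was called when its Benjamini-Hochberg adjusted p over all genes was under 0.05.

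The oviduct carries the embryo from ovary to uterus by the beat of its ciliated cells and the contraction of its smooth muscle, and its secretory cells fill the lumen with proteins and sugars that bathe the embryo. E2 acts mainly through the nuclear receptors encoded by Esr1 and Esr2, which bind DNA and change transcription. Its excess in the days after mating is known to disturb the passage of embryos. The whole tissue was measured here, so fewer cells of a type and less RNA per cell cannot be told apart.

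The arrays carried the marks of oviduct. Foxj1, the master gene of motile cilia, had a mean log2 intensity of 8.33 in oil oviduct against 6.44 in oil uterus, and Pax8, a transcription factor of oviductal secretory cells, 10.1 against 8.63. Array medians lay between 89.5 and 92.4 on the linear scale, and Pearson's r between 2 arrays of the same oviduct group ran from 0.984 to 0.996 (across genes, which are not independent replicates). Oil oviduct replicate 3 stood apart, with 302 genes differing by over 1 log2 unit from the mean of its 2 companions, against 8 to 62 genes on each other oviduct array. In it the summed linear intensity of 14 genes of ovary and corpus luteum was 6048, against 1082 to 1303 on the other 5 oviduct arrays. All 29 genes of the ciliary axoneme lay higher in that array than in the mean of the other 2 oil arrays (median 0.76), 16 of 17 interferon-stimulated genes lay lower (median of the list -0.72), and so did all 11 macrophage markers (-0.62). The 17 immediate early and heat shock genes had a median displacement of -1.24 there, and their summed intensity was 5386, against 9226 and 11558 on the other oil arrays. The 12 genes of MHC and antigen presentation summed to 7748, against 12596 to 13211 on the other 5 arrays, and H2-Ab1, a class II chain, read 7.71 against 10.48 and 10.39 on the other oil arrays. Whether the mice of that array differed in genetic background or handling is not given in the labels and was not tested. Single genes whose call ended without this array are named as such, some of them only in the later account of that fit. Single-gene differences that it moved by over 1.5 times are given with and without it. List medians are those of all arrays unless said otherwise, and some of those near 0 moved by over 1.5 times without this array. Unless said otherwise, the fit without it also leaves out the uterine array of the same number. Y-linked genes, which female tissue lacks, read up to 7.5 (Sry) and otherwise up to 5.27, so folds of genes near those levels are uncertain in size. A group mean lay below 7.5 for 29 of the 58 genes called.

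Few oviductal genes were called with E2, and the number depended on the arrays and the model used. A gene that was not called is not thereby shown to be unchanged. Limma called 32 genes higher (0.160% of those tested) and 26 lower (0.130%), of which 14 and 10 changed by at least 2-fold, while in the uterus 26.7% of genes were called. The largest rises were in genes of secreted proteins and proteases: the secretoglobin Scgb1c1, the Dcpp2 gene of a demilune cell and parotid protein, the dipeptidase Dpep1 and the kallikrein Klk1b1. The largest falls were in the inositol transporter Slc5a11, the chloride channel Ano2, the itaconate-making Acod1 and the acyl-CoA-binding Acbd7. Over all genes the median change was -0.006. In all 58 genes the 3 E2 arrays lay wholly above or below the 3 oil arrays, as they did in 17.4% of all genes. At an unadjusted p under 0.05 there were 1070 genes higher and 1024 lower (10.5%). With 1 array left out at a time, between 14 and 51 of the 58 genes kept their call: leaving out E2 oviduct replicate 3 ended 44, replicate 1 or 2 ended 43 each, and leaving out oil uterus replicate 3 ended the fewest, 7. The sizes moved less, by at most 0.44 (Dcpp2), with a median over genes of 0.10 for the largest move, and 0 genes reversed. The fit of the 6 oviduct arrays alone called 10 genes, all among the 58. Only 12 genes, 6 higher and 6 lower, kept their call whichever array was left out. The other 46 lost it in at least 1 of those 12 fits, so the rises and falls given below are not equally firm. Npl kept its call in 8 of them, Acod1 in 6, Nnat in 3, and Penk, Far1 and Xdh in 1 each.

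Promoter letters are shown for 2 of the leading genes, since the Dcpp genes are a family of close copies whose probe sets might read each other, while Scgb1c1 led the stable rises. The 250 bases before the annotated start are given 5′ to 3′ on the plus strand, from RefSeq with build GRCm38.p6. In Dcpp1 and Dcpp3, capitals mark bases that differ from or are absent in Dcpp2 where the aligned stretches overlap, and in Scgb1c1 they mark a match to TGACC.
Dcpp1, chr17:23880626-23880875: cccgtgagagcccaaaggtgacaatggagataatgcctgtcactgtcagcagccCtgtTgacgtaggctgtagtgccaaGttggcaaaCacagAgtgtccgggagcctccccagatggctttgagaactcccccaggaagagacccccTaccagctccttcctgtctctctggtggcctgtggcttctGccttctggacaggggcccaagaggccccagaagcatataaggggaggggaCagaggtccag
Dcpp2, chr17:23898472-23898721: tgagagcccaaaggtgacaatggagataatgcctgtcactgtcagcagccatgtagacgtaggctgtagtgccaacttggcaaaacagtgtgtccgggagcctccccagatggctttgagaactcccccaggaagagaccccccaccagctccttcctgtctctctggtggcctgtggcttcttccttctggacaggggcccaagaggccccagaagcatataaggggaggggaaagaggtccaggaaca
Dcpp3, chr17:23917208-23917457: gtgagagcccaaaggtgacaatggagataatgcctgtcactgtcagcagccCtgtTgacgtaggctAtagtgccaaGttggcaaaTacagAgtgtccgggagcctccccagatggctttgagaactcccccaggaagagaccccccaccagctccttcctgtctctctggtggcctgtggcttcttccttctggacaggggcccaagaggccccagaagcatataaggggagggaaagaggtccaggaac
Scgb1c1, chr7:140845315-140845564: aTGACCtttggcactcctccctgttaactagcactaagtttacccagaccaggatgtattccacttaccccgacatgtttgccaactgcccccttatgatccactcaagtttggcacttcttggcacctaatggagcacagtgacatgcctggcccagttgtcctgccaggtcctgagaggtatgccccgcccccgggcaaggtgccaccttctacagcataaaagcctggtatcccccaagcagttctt
The 3 Dcpp stretches lie on chromosome 17 and were identical over 96.7% (Dcpp1 and Dcpp2), 97.6% (Dcpp1 and Dcpp3) and 97.2% (Dcpp2 and Dcpp3) of the positions where they overlap in alignment. Near-identity outside the transcribed part shows how alike these upstream stretches are and not which copy a probe set read. No transcript or probe sequence was compared, and all Dcpp values below carry that uncertainty. The full palindrome that the estrogen receptor binds, searched as GGTCANNNTGACC on both strands in windows from 250 bases before to 50 after each start, was present in 23 of 32851 windows (0.07%) and in 0 of the 52 windows of the 45 called genes that the table held. A single arm of it, GGTCA or TGACC, lay in 40.5% of all windows and in 28 of those 52 (53.8%), counted whether or not it was part of the palindrome. A match is a description of the letters and not a binding site.

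The stable rises began with Scgb1c1, a small secreted protein of the secretoglobin family. Its log2 intensity was 6.57, 6.65 and 6.49 on the oil arrays and 9.12, 8.68 and 9.02 on the E2 arrays. The groups were far apart, and the difference was 2.37 (SE 0.17, limma adjusted p = 0.00032), a 5.17-fold rise. Dpep1, a membrane-bound dipeptidase that also cleaves leukotrienes, read 7.62, 7.67 and 7.47 with oil and 9.31, 9.44 and 9.21 with E2. It was again low on every oil array and high on every E2 array, by 1.73 (SE 0.14, 3.32-fold). The kallikrein Klk1b1, a serine protease of the glandular type, read 3.96, 4.50 and 4.19 with oil and 5.74, 5.86 and 6.07 with E2. That rise of 1.68 (SE 0.14) lay wholly below 7.5, in a family of close copies, so both its size and the identity of the copy are uncertain.

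Tns4, which links integrins to the cytoskeleton at focal adhesions, read 6.45, 6.64 and 6.41 with oil and 7.79, 7.80 and 7.77 with E2. The 3 E2 arrays were almost level, 1.29 (SE 0.14) above the oil mean. Chad, a leucine-rich protein of the extracellular matrix, read 7.90, 7.59 and 7.49 with oil and 8.80, 8.96 and 8.86 with E2, a rise of 1.21 (SE 0.11). The uncharacterised 2300002M23Rik read 6.60, 6.59 and 6.33 with oil and 7.62, 7.62 and 7.31 with E2. It rose by 1.01 (SE 0.11), and array 3 was the lowest of each group. Without both oil replicate 3 arrays these 6 rises ranged from 0.92 to 2.33 and all passed the test.

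**Figure D1:**
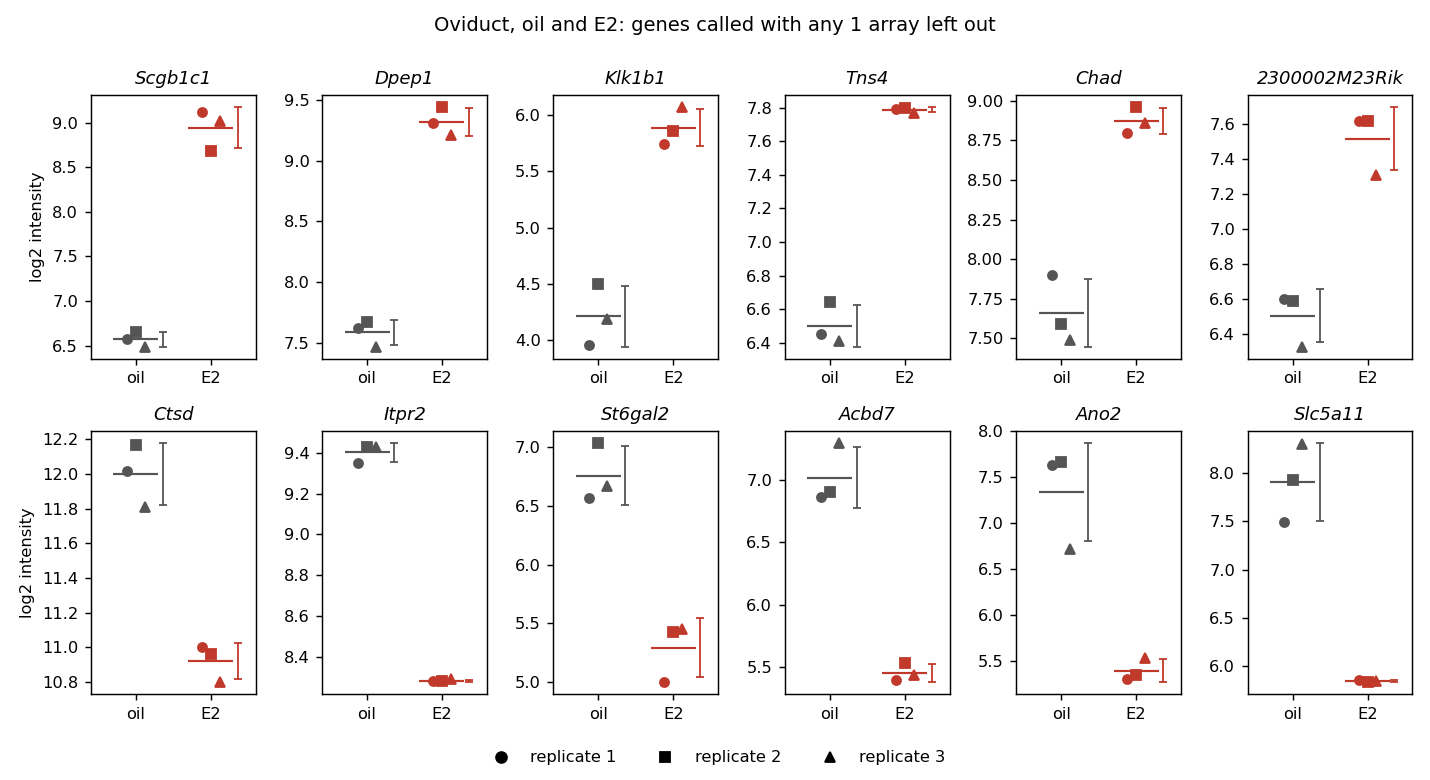
The y axis of each panel is the log2 intensity of a gene, and points are single oviduct arrays, shaped by replicate number, under oil (grey) or E2 (red), with the group mean as a line and the SD (n = 3) as a bar. The 12 genes shown kept their call with any 1 array left out, and in each of them the oil and E2 points do not overlap.

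Among the stable falls, Slc5a11, which takes up inositol together with sodium, read 7.49, 7.92 and 8.30 with oil and 5.86, 5.84 and 5.85 with E2. All E2 arrays met near one low level, and the fall was 2.05 (SE 0.24), or 4.15-fold. Ano2, a chloride channel opened by calcium, read 7.63, 7.67 and 6.72 with oil and 5.30, 5.34 and 5.53 with E2. Its fall by 1.95 (SE 0.22) came to 2.26 without oil replicate 3, the lowest of the oil arrays. Acbd7, which binds acyl-CoA, read 6.86, 6.90 and 7.30 with oil and 5.39, 5.53 and 5.43 with E2, a fall of 1.57 (SE 0.16). St6gal2, which adds sialic acid to the ends of sugar chains, read 6.57, 7.04 and 6.67 with oil and 5.0, 5.43 and 5.45 with E2. It fell by 1.47 (SE 0.18), and like Acbd7 it lay below 7.5 in both groups. The calls of Ano2, St6gal2 and 2300002M23Rik ended when only the 6 oviduct arrays were fitted (adjusted p 0.070 for Ano2 and 0.057 for the others).

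The remaining stable falls were in brighter genes. Itpr2, a calcium release channel of the endoplasmic reticulum that opens with inositol trisphosphate, read 9.35, 9.43 and 9.43 with oil and 8.28, 8.28 and 8.29 with E2. Both groups were tight, and the fall of 1.12 (SE 0.09, limma adjusted p = 0.00032) was 2.17-fold. Ctsd, the main aspartic protease of lysosomes, was bright on all arrays. It read 12.02, 12.17 and 11.81 with oil and 11.00, 10.96 and 10.80 with E2, and fell by 1.08 (SE 0.10), or 2.11-fold. Acbd7, Chad, Ctsd, Dpep1, Itpr2, Klk1b1, Scgb1c1 and Tns4 kept their call under every alternative run on single genes that tested them, including the fits with replicate blocks, array weights and other scalings.

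The secreted small proteins of the oviduct gave 3 rises (Scgb1c1, Dcpp2 and Tcn2) and 1 fall (Wfdc2) among 16 genes measured, with a median of 0.25. Over all genes 0.160% rose and 0.130% fell. This list, like the other gene lists here, was chosen with earlier results of these data known. Its counts and median therefore describe its members and are not a finding about the class. Dcpp2 had the largest rise of all genes called, 2.59 (SE 0.34, limma adjusted p = 0.0096). Its arrays read 5.13, 5.36 and 3.93 with oil and 6.84, 7.64 and 7.71 with E2, so oil replicate 3 was the lowest, and without it the rise was 2.15. The call ended without E2 oviduct replicate 2 or 3, with the rise between 2.15 and 2.86 over all left-out arrays. It also ended when only the 6 oviduct arrays were fitted (limma adjusted p = 0.13). The oil mean of Dcpp2, 4.81, lay below 5.27, within the levels of Y-linked genes, so the size of its rise is uncertain. Tcn2, the carrier of vitamin B12 in body fluids, rose by only 0.37 (SE 0.07) and lost its call with any 1 of the 12 arrays left out. Wfdc2, a protease inhibitor of secretory epithelium, read 9.15, 9.38 and 9.03 with oil and 8.16, 8.24 and 8.31 with E2. The fall of 0.95 (SE 0.12) lost its call when E2 oviduct replicate 1 or 2 was left out, with the change between -1.03 and -0.85 over all left-out arrays.

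The other Dcpp genes went different ways in oil replicate 3. Dcpp1 read 7.27 and 7.33 on oil arrays 1 and 2 but 10.34 on array 3, above all E2 arrays (8.93, 9.14 and 9.46). Dcpp3 read 8.25 and 8.08 on oil arrays 1 and 2 but 5.74 on array 3, against 9.99, 9.84 and 10.03 with E2. Array 3 was thus the highest oil array for Dcpp1 and the lowest for the others. Other genes that stood apart in it included H2-Ab1 on chromosome 17, given above. Cyp11a1 on chromosome 9, a member of the ovary and corpus luteum list, read 9.74 there, against 5.80 and 4.79 on the other oil arrays. Lipf on chromosome 19 read 8.91 there, against 6.58 and 5.93. The share of each chromosome among the genes that stood apart was not counted. How far the array's other departures bear on its Dcpp values was not tested. With all arrays, Dcpp1 was at 0.87 and Dcpp3 at 2.59 (limma adjusted p = 0.062), and neither was called. Without both oil replicate 3 arrays, Dcpp1 rose by 1.88 (SE 0.21, adjusted p = 0.0044) and Dcpp3 by 1.79 (SE 0.12, adjusted p = 0.00029).

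**Figure D2:**
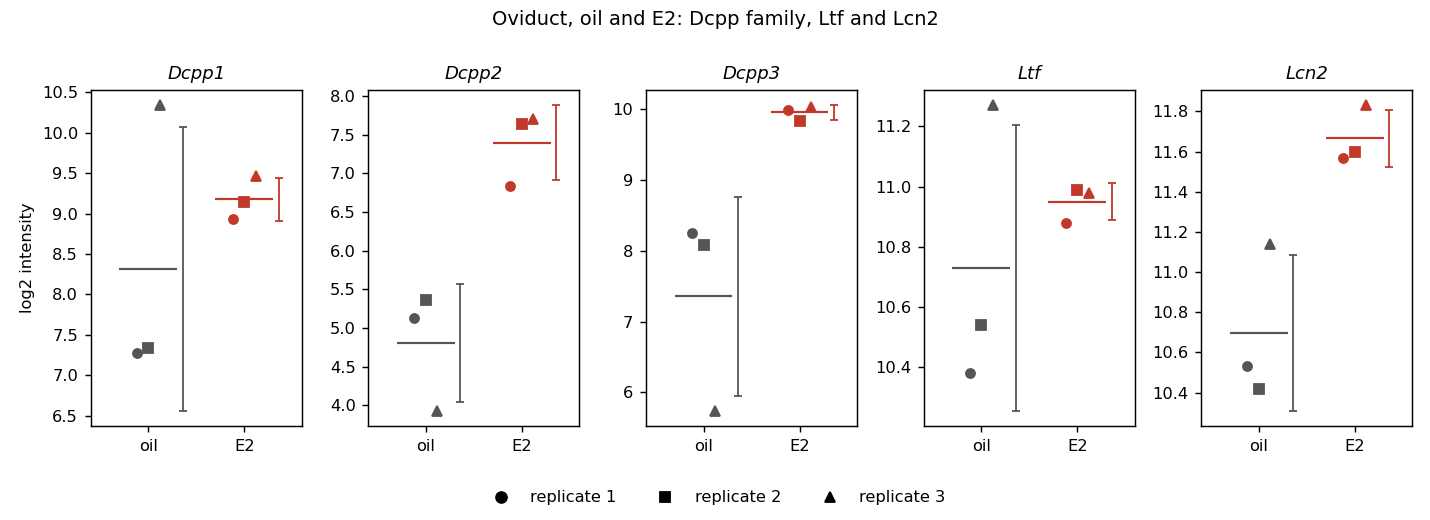
The y axis of each panel is the log2 intensity in oviduct, points are single arrays shaped by replicate number, lines are group means and bars are the SD (n = 3), with oil in grey and E2 in red. Oil replicate 3 (triangle) is the highest oil array of Dcpp1, Ltf and Lcn2 and the lowest of Dcpp2 and Dcpp3.

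Proteases and lysosomal enzymes moved in part. Of 24 peptidases and lysosomal hydrolases measured, Dpep1 rose, Ctsd fell and 22 were not called, with a median of 0.20. At an unadjusted p under 0.05, 14 members were higher, as were 1070 of all 19938 genes. Ctsf, a lysosomal cysteine protease, read 7.60, 7.55 and 7.49 with oil and 7.86, 7.82 and 7.77 with E2, a difference of 0.27 (SE 0.06) that limma did not call. Among all genes 0.160% rose and 0.130% fell, and of 16 tissue kallikreins 3 rose and 0 fell (median 0.08). Besides Klk1b1 they were Klk1b24, which read 6.73, 7.0 and 7.07 with oil and 7.99, 8.13 and 8.51 with E2 (1.28, SE 0.23), and Klk1b5 (1.11, SE 0.20). The latter pair kept the call in only 2 of 12 left-out fits each, and Klk1b24 missed it without both oil replicate 3 arrays (1.35, adjusted p = 0.064). Upstream of their starts, Klk1b1 was identical to Klk1b24 over 80.4% and to Klk1b5 over 83.5% of aligned positions. Whether the probe sets of these genes read each other's transcripts was not tested.

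Of 11 macrophage markers 0 were called. The list was chosen with earlier results of these data known, and its members were read on the same 6 arrays. Counts of its members are therefore not counts of independent observations. All 11 measured markers had a positive difference, 10 with an unadjusted p under 0.05, and the median was 0.55, or 0.38 without oil replicate 3. Of all 19938 genes, 1070 were higher at that p. Their summed linear intensity was 3751, 3583 and 2369 on the oil arrays and 5017, 4323 and 4561 on the E2 arrays, so the groups did not overlap with or without oil replicate 3, the lowest array. That was not particular to this list, since the sums of the complement, chemokine and tissue kallikrein lists did not overlap either. The growth factor receptor Csf1r read 8.37, 8.30 and 7.90 with oil and 8.87, 8.64 and 8.72 with E2 (0.55, SE 0.14, limma adjusted p = 0.18). Lyz2, the lysozyme of phagocytes, was at 0.53 (SE 0.15) and the complement subunit C1qc at 0.66 (SE 0.18), and without both oil replicate 3 arrays these were 0.31 and 0.42, with Csf1r at 0.41. Complement genes had a median of 0.35 with 0 of 14 called and 7 higher at an unadjusted p under 0.05. C7, a subunit of the membrane attack complex, read 6.50, 6.21 and 6.40 with oil and 7.33, 7.29 and 7.66 with E2 (1.06, SE 0.26, adjusted p = 0.16). Markers of T and NK cells (median 0.05, 0 of 12 called) and of B and plasma cells (0.005, 0 of 8) had smaller medians. Macrophages carry many lysosomal enzymes, and the part of these markers in the values of the peptidase list was not tested.

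The genes of transport by muscle and cilia did not pass the test, apart from Itpr2. Of 19 genes of smooth muscle contraction 0 were called (median -0.002, from Synpo2 at -0.27 to Myocd at 0.33), and 2 had an unadjusted p under 0.05. Of 23 receptors and signals that set muscle tone 0 were called (median 0.01, 3 at an unadjusted p under 0.05). The oxytocin receptor Oxtr read 7.01, 6.93 and 6.83 with oil and 7.01, 7.14 and 6.94 with E2, and the groups met. Ramp3, which pairs with the adrenomedullin receptor, and Ptger2, a prostaglandin E receptor that relaxes muscle, were not called with all arrays but passed without both oil replicate 3 arrays, at -0.90 (SE 0.15) and -0.69. Among 21 genes of calcium release and muscle ion channels Itpr2 alone was called, with a median of -0.007, while 0.291% of all genes were called. Of 14 genes of nitric oxide and arginine metabolism 0 were called, with Arg2, an arginase, at 0.65 (SE 0.17, limma adjusted p = 0.18).

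Genes of the ciliary axoneme had a median of -0.18 with 28 of 29 below 0, 0 called and 0 at an unadjusted p under 0.05. Without both oil replicate 3 arrays the median was 0.08. The summed intensity of the list was 13594, 10950 and 21328 on the oil arrays and 12738, 13632 and 12842 on the E2 arrays, so oil replicate 3 alone was high and the E2 arrays lay among the other oil arrays or just above them. Foxj1 read 8.10, 7.80 and 9.10 with oil and 8.20, 8.13 and 8.24 with E2, and its difference went from -0.14 (SE 0.26) to 0.24 without that array. Multiciliated cell fate genes, 18 in all, gave 0 calls and medians of -0.17 with and 0.08 without it.

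Steroid receptors gave 0 calls in 8 genes. Esr1, abundant in oviduct, read 10.98, 10.97 and 10.93 with oil and 11.03, 11.04 and 10.96 with E2, while Esr2 stayed between 5.26 and 5.46 on all 6 arrays. Pgr, the progesterone receptor and a gene that E2 controls in many tissues, read 9.39, 9.10 and 8.64 with oil and 8.55, 8.76 and 8.80 with E2. Its difference was -0.33 (SE 0.15), and -0.53 without both oil replicate 3 arrays (limma adjusted p = 0.056). Genes known to be induced by E2 in uterus gave 0 calls of 25 (median 0.10), 5 of them at an unadjusted p under 0.05, and 3 calls without both oil replicate 3 arrays, of Ltf and Lcn2 higher and Ramp3 lower. The antimicrobial lactoferrin, Ltf, read 10.38, 10.54 and 11.27 with oil and 10.88, 10.99 and 10.98 with E2. Lcn2, which binds the iron carriers of bacteria, read 10.53, 10.42 and 11.14 with oil and 11.57, 11.60 and 11.83 with E2. Both were highest among oil arrays on replicate 3, and the Lcn2 arrays did not overlap while those of Ltf did. The difference of Ltf was 0.22 (SE 0.19) with all arrays and 0.49 without both oil replicate 3 arrays, and that of Lcn2 0.97 (SE 0.21, limma adjusted p = 0.12) and 1.19. Cell cycle genes, 26 in all, gave 0 calls and 1 gene at an unadjusted p under 0.05, although 23 of them fell in the uterus. Their median in oviduct was 0.02, and 0.12 without both oil replicate 3 arrays.

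**Figure D3:**
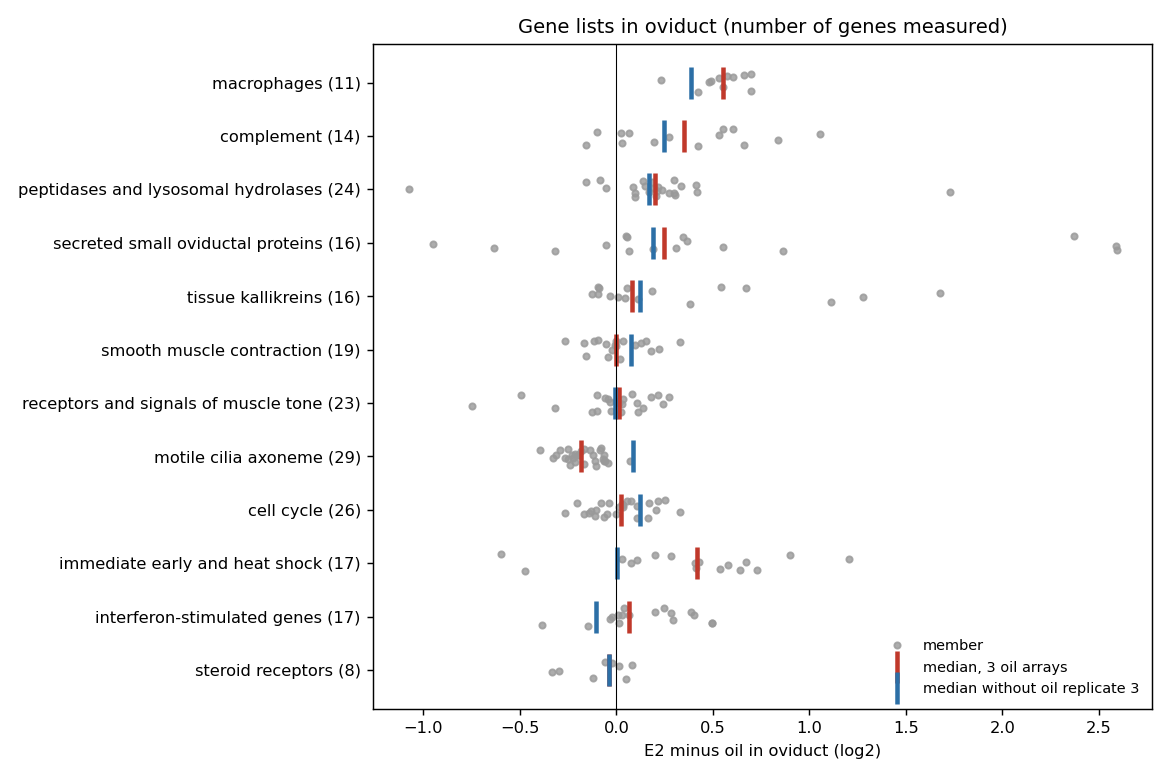
The x axis is the log2 difference of E2 minus oil in oviduct, each grey point is a gene of the list named on the y axis, and bars mark the list's median with all 3 oil arrays (red) and without both oil replicate 3 arrays (blue). The medians of axoneme genes (-0.18 and 0.08) and of immediate early and heat shock genes (0.41 and 0.002) moved most between the fits among the 12 lists drawn, while macrophage markers stayed to the right of 0.

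Enzymes of sialic acid and of lipid thioesters were among the falls. Npl, which splits sialic acid, read 10.31, 10.65 and 9.67 with oil and 8.72, 8.69 and 8.55 with E2, a fall of 1.56 (SE 0.21) that came to -1.83 without oil replicate 3. Together with St6gal2 it made 2 calls among 21 genes of sialic acid and fucose (median 0.05), while 0.291% of all genes were called. Acot7, which hydrolyses acyl-CoA, fell by 0.76 (SE 0.13), and Olah, which releases fatty acids from their synthase, fell by 1.37 (SE 0.23). Far1, which makes fatty alcohols for ether lipids, fell by 0.41 (SE 0.07), and B3gnt5, which starts the sugar chains of lacto-series glycolipids, fell by 1.47 (SE 0.26), with values from -1.71 to -1.13 when 1 array was left out. The acyl-CoA synthetase Acsf2 rose by 0.56 (SE 0.09), with a second probe set at 0.57. Of 20 genes of sterol and fatty acid synthesis 0 were called (median -0.08; 3 at an unadjusted p under 0.05).

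Metabolic enzymes fell and rose. Acod1, which makes the antimicrobial metabolite itaconate, read 6.83, 7.43 and 7.53 with oil and 5.70, 5.27 and 5.13 with E2, and fell by 1.90 (SE 0.29). Gldc of the glycine cleavage system fell by 0.77 (SE 0.13) and the spermidine synthase Srm by 0.54 (SE 0.09). Gulo, the last enzyme of vitamin C synthesis, read 7.06, 7.29 and 7.01 with oil and 7.87, 7.73 and 7.79 with E2, and rose by 0.68 (SE 0.11). The aldehyde dehydrogenase Aldh2 rose by 0.39 (SE 0.07), the xanthine oxidase gene Xdh by 0.38 (SE 0.07) and Pyroxd2 by 0.53 (SE 0.09). Pgk1 of glycolysis rose by 0.41 (SE 0.07), but 2 of its 3 probe sets gave one and the same value and the third was not called when tested on its own (0.40, limma adjusted p = 0.057). Gulo, Aldh2, Xdh and Pgk1 missed the threshold without both oil replicate 3 arrays, at adjusted p between 0.055 and 0.065.

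Matrix, adhesion and membrane genes also split. Col12a1, a collagen that decorates fibrils, read 8.90, 8.87 and 8.53 with oil and 9.23, 9.41 and 9.46 with E2 and rose by 0.60 (SE 0.10), while the related Col14a1 read 8.82, 8.75 and 8.65 against 8.25, 8.18 and 8.09 and fell by 0.57 (SE 0.07). Col12a1 lost its call with any 1 of the 12 arrays left out and Col14a1 only without E2 oviduct replicate 3 (-0.53). Of 29 genes of matrix and proteases Col12a1 and Chad were called (median 0.10), while 0.291% of all genes were called. The tight junction protein Cldn4 read 7.01, 7.17 and 7.06 with oil and 6.69, 6.48 and 6.68 with E2 and fell by 0.46 (SE 0.08), as did Ppl, a plakin of cell junctions, by 0.60 (SE 0.10), and Cobl, which nucleates actin, by 0.75 (SE 0.13). Of 14 general epithelial markers Cldn4 alone was called, with a median of -0.12. At an unadjusted p under 0.05, 4 markers were lower and 0 higher, as were 1024 and 1070 of all 19938 genes. The E2 arrays lay wholly below the oil arrays in 5 markers and wholly above in 1, while 17.4% of all genes did not overlap. The list summed to 11798 to 13158 with oil and 11534 to 12159 with E2. Upk1a, a urothelial plaque protein, read 9.76, 9.87 and 9.09 with oil and 10.55, 10.57 and 10.74 with E2, and its rise of 1.05 (SE 0.17) was 0.80 without oil replicate 3.

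Other rises came from genes of several roles. Penk, the precursor of the enkephalin opioids and bright on all arrays, read 11.30, 11.56 and 11.34 with oil and 12.02, 12.04 and 11.99 with E2 (0.62, SE 0.11). Apela, a peptide that activates the apelin receptor, rose by 0.89 (SE 0.16), and Adgrg2, an adhesion receptor of fluid-handling ducts, by 0.71 (SE 0.12). Crabp2, which carries retinoic acid to its receptor, read 5.56, 5.62 and 5.44 with oil and 7.05, 6.50 and 6.91 with E2, a rise of 1.28 (SE 0.18). It was the single call among 16 retinoid genes, while 0.291% of all genes were called. Nnat, a small membrane protein of the endoplasmic reticulum, rose by 1.26 (SE 0.21), and the collectin Sftpd, which binds microbial sugars, by 1.14 (SE 0.18). Ly6f rose by 1.5 (SE 0.26) in a family of close copies, so its identity is uncertain. The protease inhibitor Mug1 rose by 0.93 (SE 0.12), below 7.5 in both groups. Smaller rises were those of Pla2r1 (0.63), Siglec15 (0.63), Rassf5 (0.58), Chodl (0.56), Rtn2 (0.43) and Ssr4 (0.42). Falls not yet named were those of the organic anion transporter Slco4c1 (-0.97), the endosomal chloride exchanger Clcn5 (-0.67), the secreted phospholipase Pla2g5 (-0.57), Mab21l3 (-0.48), the adiponectin receptor Adipor2 (-0.47), the nucleolar Gnl3 (-0.41) and Ncoa7 (-0.40). Of the genes in this paragraph, Apela, Adgrg2, Siglec15 and Mab21l3 missed the threshold without both oil replicate 3 arrays.

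Limma's interaction contrast, the effect of E2 in oviduct minus that in uterus, was called for 31 of the 58 genes and for 11.5% of all genes. The 58 were picked by their difference in oviduct, which is part of that contrast, so these shares cannot be compared. Of the 32 genes that rose in oviduct, 13 also rose in uterus, 5 fell there and 14 were not called, and of the 26 that fell, 20 also fell, 3 rose and 3 were not called. Among the stable rises, Dpep1 rose in uterus by 1.68, close to its oviductal rise, and the difference of 0.05 was not called. Scgb1c1 rose less in uterus, by 1.00, with a difference of 1.37 (limma adjusted p = 0.0037). Klk1b1, Tns4, Chad and 2300002M23Rik were at 0.07, -0.01, 0.03 and 0.03 in uterus, and each effect differed from that in oviduct, by 0.98 to 1.61. The 6 stable falls also fell in uterus, at -2.20 (Slc5a11), -1.91 (St6gal2), -1.33 (Ano2), -1.12 (Acbd7), -0.76 (Itpr2) and -0.75 (Ctsd), and for none of them was the difference between tissues called.

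Some genes went opposite ways in the tissues. Wfdc2 fell in oviduct and rose by 1.18 in uterus, a difference of -2.13 (limma adjusted p = 2.1e-05). Gulo rose in oviduct and fell by 1.51 in uterus (difference 2.18), as did Adgrg2 (-1.08 in uterus, difference 1.79), Apela (-0.93, 1.82), Acsf2 (-0.65, 1.22) and Rassf5 (-0.27, 0.85). Cldn4 and Pla2g5 fell in oviduct and rose in uterus, by 0.32 and 0.37. Falls shared by both tissues were larger in uterus for Acod1 (-3.85), Npl (-3.70), Acot7 (-2.58), Srm (-1.72) and Clcn5 (-1.69), with a called difference in each. Sftpd and Xdh rose more in uterus, by 3.19 and 1.62. Among the genes named, Ltf and Lcn2 had the largest differences, -5.23 and -4.17. They rose by 5.45 and 5.14 in uterus from oil means of 6.60 and 7.39, against oil means of 10.7 each in oviduct.

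**Figure D4:**
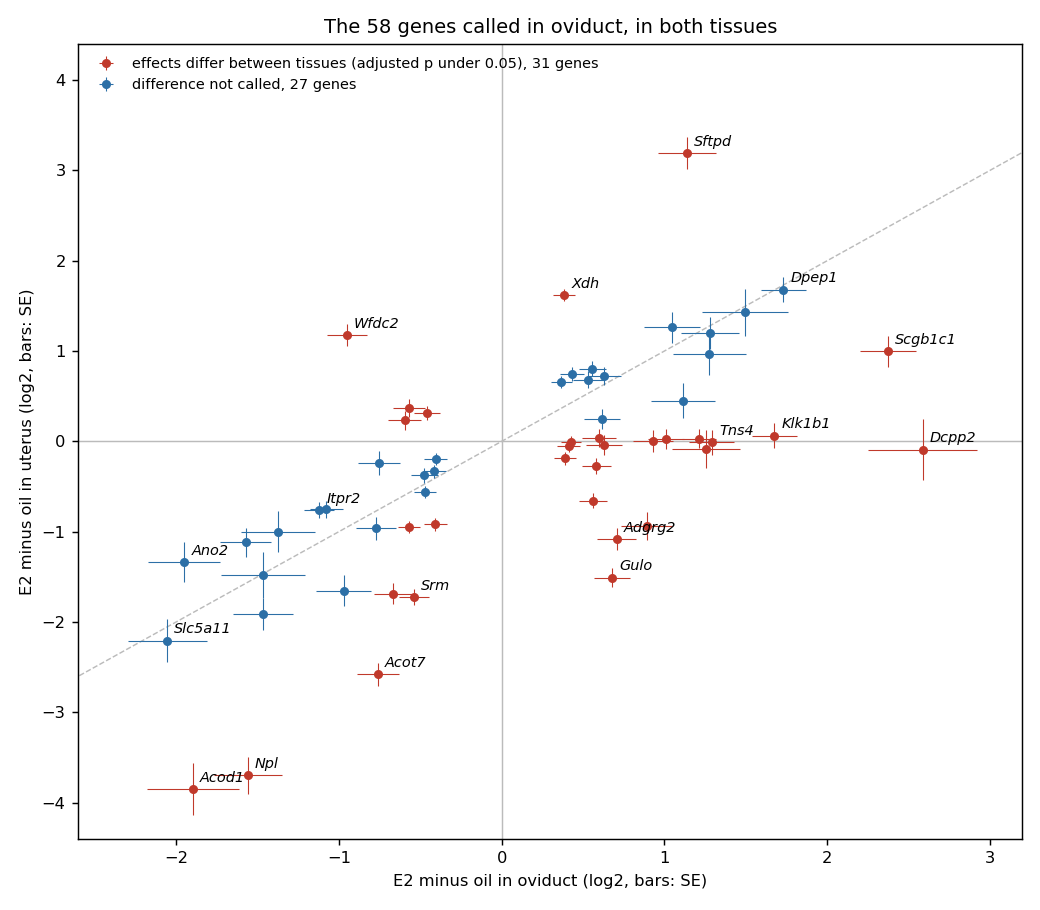
The x axis is the log2 difference of E2 minus oil in oviduct and the y axis the same in uterus, with SE bars, for the 58 genes called in oviduct, and the dashed line marks equal effects. The 31 genes whose effects differed between tissues by limma are red, among them Wfdc2 (-0.95 and 1.18) and Gulo (0.68 and -1.51), and the other 27 are blue.

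Without both oil replicate 3 arrays 121 genes were called (0.607%), 49 higher and 72 lower. They included 46 of the 58, and 75 of them had not passed with all arrays, 26 higher and 49 lower. Leaving out the oviduct array alone, with the uterine array kept, called 59 genes (23 higher, 36 lower), of which 29 were among the 58, so the larger counts rest on leaving out both arrays. Some of the 75 also passed with a single array left out. Besides the genes already named as missing the threshold there, Tcn2, Cldn4 and Far1 did so, at adjusted p 0.055, 0.058 and 0.058. Besides Dcpp1, Dcpp3 and Lcn2 (1.19, SE 0.11, limma adjusted p = 0.0012), the rises among the 75 included the serine protease inhibitor Serpina3n, which read 8.58, 8.92 and 8.19 with oil and 9.82, 9.79 and 10.03 with E2 (1.13 without oil replicate 3, SE 0.20). Ghrh, the hypothalamic releasing hormone of growth hormone, read 7.61, 7.57 and 6.35 against 8.64, 8.40 and 8.80 (1.02, SE 0.13). Lipf, a lipase, read 6.58, 5.93 and 8.91 with oil, so that array 3 lay above all E2 arrays (7.42, 7.80 and 7.60), and its difference was 0.46 with all arrays and 1.35 (SE 0.19) without both oil replicate 3 arrays. Agr2, a disulfide isomerase of mucus cells, rose by 0.79 (SE 0.12), Ada, an adenosine deaminase, by 0.74 (SE 0.10), Ltf by 0.49 (SE 0.08) and Ptgis, the prostacyclin synthase, by 0.40.

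The falls that passed without those arrays and not with all arrays were led by Slc6a14, an amino acid transporter, which read 7.17, 7.65 and 6.23 with oil and 5.31, 5.51 and 5.24 with E2 (-2.06 without oil replicate 3, SE 0.15). Lrp2, an endocytic receptor that takes up hormone carriers, read 9.38, 9.66 and 8.58 with oil and 8.44, 8.25 and 8.40 with E2 (-1.16, SE 0.16). Enpp3, an ectoenzyme that degrades nucleotides, read 10.81, 11.00 and 9.91 with oil and 9.93, 9.74 and 9.81 with E2 (-1.08, SE 0.08). In these 3 genes oil array 3 was the oil array nearest to the E2 group. Cyp2j11 (-1.88), Ap1s3 (-1.16), the monocarboxylate carrier gene Slc16a12 (-1.08, or -0.52 with all arrays), Tmem100 (-0.96, or -0.45), Hopx (-0.86, or -0.56) and Nde1 (-0.85) fell too, and so did Wnt7a, the epithelial Wnt ligand that patterns the female tract (-0.77). Wnt7a read 6.96, 6.88 and 6.78 with oil and 6.04, 6.29 and 6.11 with E2, without overlap, and with all arrays it was at -0.73 (SE 0.19, limma adjusted p = 0.18).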

How the data were processed

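Total RNA of 12 samples (4 groups of 3) was measured on Affymetrix mouse gene arrays. The deposited intensity values were made by the authors with RMA per the submitters' processing notes, whose version is not given in the sources used here. They were linear (array maxima 9102 to 9950, 0 values at or below 0) and were log2 transformed. Of 35556 probe sets 21789 had a single gene symbol in the platform annotation, 1621 had several and 12146 none, and 21698 had a gene identifier in the GRCm38.p6 gene table. A gene was read from its single-symbol probe set with the highest mean over 12 arrays, for 19938 genes in all, of which 999 had several probe sets.

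The main model held 4 group means over all 12 arrays, fitted with lmFit and eBayes of limma 3.58.1 under R 4.3.3, two-sided, on 8 residual degrees of freedom. With 3 arrays a group an exact test could not go below p = 0.10 and none was used, since so few arrays limit the precision. The fit was also run on simulated arrays with independent noise for each gene and large set changes. They held no array that stood apart, so that run does not measure how firm the real calls are. Genes named were all genes called in oviduct (the rule took up to 30 in a direction, and Xdh and Tcn2, the smallest rises, were added after their values were seen), up to 10 in each direction called without both oil replicate 3 arrays and not with all arrays, up to 3 members of each of 53 gene lists, and Esr1, Esr2, Pgr, Ltf, Lcn2, Foxj1, Pax8, Oxtr and Lif. Members and lists were chosen with earlier results of these data known. Of 845 listed genes 776 were measured, and 39 lists had 0 called members. Alternatives were fits of oviduct alone, replicate blocks, filters, other gene measures, scalings and variance models, array weights, a fold threshold, a pseudocount and leaving out arrays. Scan dates, detection calls and lower E2 doses were not analysed here.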

Additional observations from a re-analysis of the deposited data

Results flagged for a closer look

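Genes are given here because the effect of E2 in oviduct differed from that in uterus by limma's interaction contrast (oviduct minus uterus, log2, adjusted over all genes, of which 11.5% were called). No explanation was weighed for any of them.

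The effect was more positive in oviduct for Dcpp2 (2.68), Gulo (2.18), Npl (2.14), Acod1 (1.95), Acot7 (1.82), Apela (1.82), Adgrg2 (1.79), Klk1b1 (1.61), Scgb1c1 (1.37), Nnat (1.34), Tns4 (1.30), Acsf2 (1.22), Chad (1.19) and Srm (1.19). Smaller positive differences were those of Clcn5 (1.02), 2300002M23Rik (0.98), Mug1 (0.93), Rassf5 (0.85), Siglec15 (0.67), Aldh2 (0.58), Col12a1 (0.56), Gnl3 (0.51), Pgk1 (0.46), Ssr4 (0.43) and Col14a1 (0.38). For Npl, Acod1, Acot7, Srm, Clcn5, Gnl3 and Col14a1 the positive value stands for a smaller fall in oviduct.

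The effect was more negative in oviduct for Ltf (-5.23), Lcn2 (-4.17), Wfdc2 (-2.13), Sftpd (-2.06), Xdh (-1.24), Pax8 (-1.02), Oxtr (-0.99), Pla2g5 (-0.93), Ppl (-0.83) and Cldn4 (-0.78). Pax8 and Oxtr rose in uterus, by 0.84 and 1.10, and were not called in oviduct.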

How the results depend on the processing

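Of 209 genes named or given as values, 0 that were called reversed under any alternative run, but the number called did not hold. Against 58 genes called with all arrays, the fit of the oviduct arrays alone called 10 genes, a fold threshold of 1.2 (treat) 14, array weights 264 (48.5% of them higher, against 55.2%, with oil oviduct replicate 3 weighted 0.30) and the fit without both oil replicate 3 arrays 121 (40.5% higher). With 1 array left out the count ranged from 14 to 67, and 14 to 51 of the 58 genes kept their call, while the 31 genes whose effect differed between tissues became 29 to 34. The fixed replicate block called 14 genes in oviduct, 13 of them among the 58, and 29 differences between tissues, and a random block of treatment and number called 57. Arrays of oil and E2 oviduct with the same number did not deviate together (r -0.09, -0.20 and 0.01), and the labels do not say that a number marks a shared mouse or batch, so the numbers were not taken as pairs. Between oviduct and uterus the same-number r was 0.00, 0.05 and 0.26 for oil and 0.26, 0.03 and 0.03 for E2, so oil number 3 and E2 number 1 were above 0.1 and the others were not. The other settings, which were a mean log2 of at least 6, the mean of probe sets, median centring, quantile normalization, another variance model, single probe sets and a pseudocount of 16, called 41 to 80 genes or probe sets. In these fits the causes of the changes in count were not tested, and Dixon's test of a single array within its group was not run, as groups had 3 arrays.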
